A study of Mus musculus with 4 samples.

Results

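A set of 10 genes of the transport and surface programme of colonocytes, the absorptive epithelial cells of the colon, was followed over 4 whole-transcript mouse arrays: Slc26a3, Slc6a14, Car1, Car4, Guca2a, Cyp2c55, Clca3b, B4galnt2, Ugt2b34 and Tm4sf20. They were selected on their measured log2 levels on these same 4 arrays, so every value below is a description. All 10 were measured, out of 22180 genes in all. Where several probe sets named the same gene alone, the one with the highest mean over the 4 arrays stood for it.

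Each of the 4 groups was 1 array of RNA from pooled C57Bl/6 mice aged 8 to 10 weeks. The recolonized group was T cells of the colon epithelial fraction (intraepithelial lymphocytes, IEL) of mice given ampicillin, neomycin, metronidazole and vancomycin with grape Koolaid in the drinking water for 7 days and then recolonized for 7 days. The labels call the return of bacteria a co-housing with littermates in one place and a transfer of their bedding in another. The other groups came from unmanipulated mice: colon IEL, IEL of the small intestine, and T cells of the colon lamina propria. A pool held 10 mice, 5 male and 5 female, although the labels do not settle whether that holds for each array or whether arrays shared mice. In all groups T cells had been enriched by magnetic negative selection with an added antibody against EpCAM, an epithelial surface protein. With 1 array per group there is no replicate and no test, and the number of arrays limits the precision.

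Colonocytes absorb salt and water and exchange chloride for bicarbonate across their luminal membrane. Carbonic anhydrases supply the bicarbonate and protons for this exchange, and the hormone guanylin, secreted into the lumen, acts on guanylyl cyclase C to raise cyclic GMP and shift the balance towards secretion. These are epithelial functions and not those of T cells.

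The array labelled lamina propria T cells (the array labelled LP below) went against its label. The 11 measured T cell markers had a median log2 level of 6.76 on the recolonized array, 5.86 on the colon IEL array, 5.91 on the small intestinal array and 2.41 on the array labelled LP. For Cd3e, which encodes an invariant CD3 chain, the level was 9.43, 9.17, 9.49 and 3.72 in the same order. The 14 measured pan-epithelial markers ran the other way, with medians of 5.01 on the recolonized array, 4.27 on the colon IEL array, 5.53 on the small intestinal array and 8.21 on the array labelled LP. Epcam itself was at 5.91, 4.28, 7.88 and 9.20 in that order. The median of all genes was between 2.18 and 2.41 on the 4 arrays, and values near it cannot be separated from the low end of an array. In such bulk samples, fewer cells of a type and less RNA per cell cannot be told apart.

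All 10 genes had their highest level on the array labelled LP, where they lay between 8.06 and 11.54. That array was the highest for 43.3% of the 13823 genes that reached the median level on at least 1 array. Their medians were 5.73 on the recolonized array, 2.98 on the colon IEL array, 5.83 on the small intestinal array and 9.83 on the array labelled LP. The colon IEL array gave the lowest level of 8 of the 10 (36.3% of all genes above) and the small intestinal array that of Car1. For Car4, counted among the 8, the colon IEL and small intestinal arrays were within 2-fold of each other (−0.69). Slc6a14 was below the array median on both, so the small intestinal and colon IEL arrays have no order for it. In second place the genes split evenly, although the recolonized and small intestinal arrays were within 2-fold of each other for Slc26a3, Guca2a and Cyp2c55. The recolonized array was second for Slc6a14, Car1, Car4, Guca2a and Cyp2c55 (25.5% of all genes above). The small intestinal array was second for Slc26a3, Clca3b, B4galnt2, Ugt2b34 and Tm4sf20 (37% of all genes above).

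**Figure D1:**
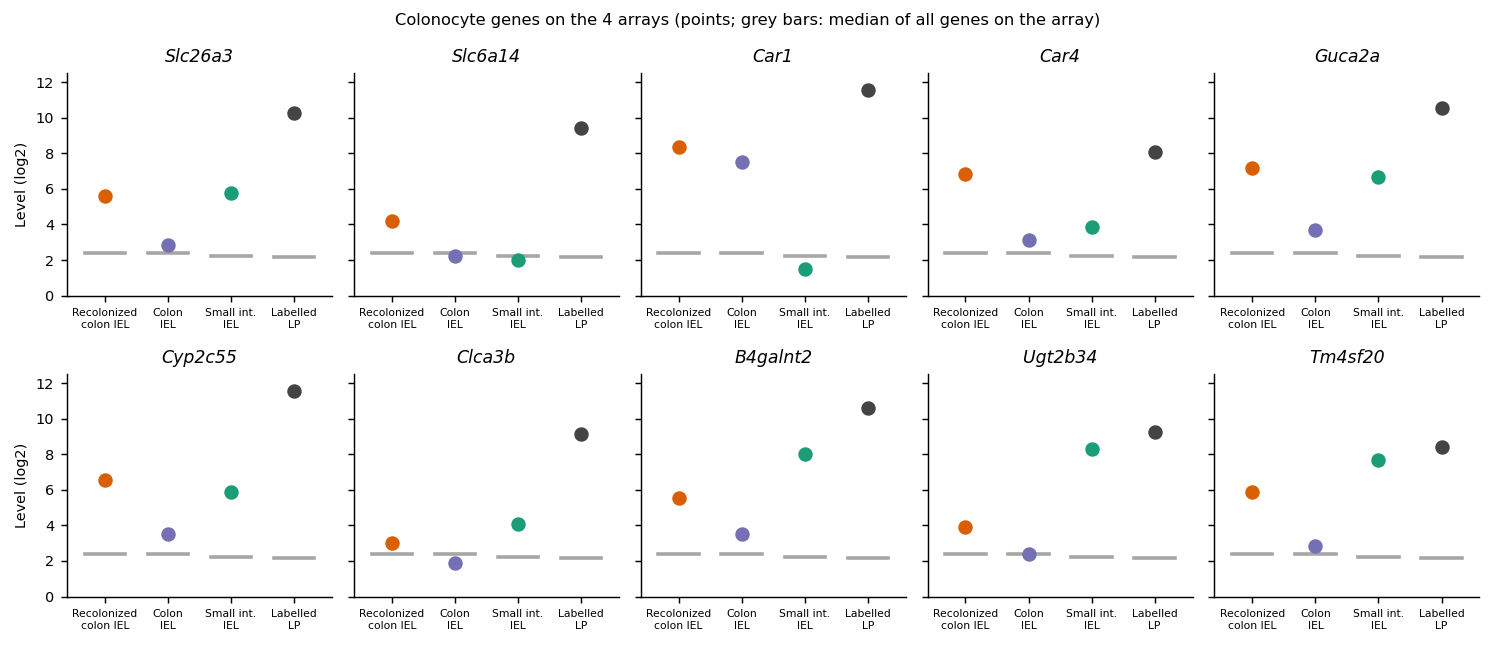
Level (log2) of each of the 10 colonocyte genes on the 4 arrays, 1 point per array, with the median of all genes on that array as a grey bar. Every gene is highest on the array labelled LP. The colon IEL array is lowest for 8 of the 10, with Car4 there within 2-fold of the small intestinal array. Car1 at 7.49 on the colon IEL array stands apart from the other 9 at 1.87 to 3.68.

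The luminal anion exchanger Slc26a3, which takes up chloride in return for bicarbonate and whose loss in humans causes congenital chloride diarrhoea, was at 5.57 on the recolonized array, 2.82 on the colon IEL array, 5.78 on the small intestinal array and 10.26 on the array labelled LP. The colon IEL array was thus near its median level for this gene, while the recolonized and small intestinal arrays differed by only −0.21. Against the array labelled LP the difference was −7.44 for colon IEL, −4.69 for the recolonized array and −4.47 for small intestinal IEL. As deposited, these are 174-fold, 25.7-fold and 22.2-fold lower levels. With lowess the differences were −5.98, −3.72 and −4.15 in that order, so the folds depend on the processing.

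Slc6a14, a transporter that takes up neutral and cationic amino acids with sodium and chloride, was at 4.22 on the recolonized array, 2.22 on the colon IEL array, 1.99 on the small intestinal array and 9.41 on the array labelled LP. It was near or below the array median on both the colon IEL and the small intestinal arrays, so their difference of 0.23 has no reading. The other amino acid and peptide transporters had another layout. Of the 17 measured in a list that includes Slc6a14, 16 were above the level floor in the comparison of small intestinal IEL with the array labelled LP (brighter array of the pair at or above its median gene level), and 11 of these were at least 2-fold higher and 4 lower on the small intestinal array. Over all genes that passed the floor in that pair, 8.76% were higher and 15.7% lower. The 4 with the largest differences were Slc6a14 with −7.41, the light chain Slc7a8 with 4.72, the neutral amino acid transporter Slc6a19 with 4.16 and Slc43a2 with 3.16. Slc15a1, the luminal peptide transporter, chosen after its values were seen, was at 8.45 on the small intestinal array and 6.03 on the array labelled LP.

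Car1, a cytosolic carbonic anhydrase of colonocytes and of red cells, was at 8.33 on the recolonized array, 7.49 on the colon IEL array, 1.49 on the small intestinal array and 11.53 on the array labelled LP. Its listed range of 10.04 was the widest of the 10 genes, with its low end below the median of the small intestinal array, so its size is uncertain. On the colon IEL array it stood at 7.49 while the other 9 genes lay between 1.87 and 3.68. Car4, a membrane-anchored carbonic anhydrase of the luminal surface, was at 6.82 on the recolonized array, 3.14 on the colon IEL array, 3.83 on the small intestinal array and 8.06 on the array labelled LP. The recolonized array lay 1.24 below the array labelled LP for Car4, the smallest gap of the 10 genes in that pair, whereas the colon IEL array lay 4.91 below it.

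Among the other carbonic anhydrases, the cytosolic Car2 was at 5.97 on the recolonized array, 8.10 on the colon IEL array, 7.19 on the small intestinal array and 9.77 on the array labelled LP. The membrane-bound Car12 was at 2.86, 2.15, 2.10 and 7.38 in that order. Car13 was at 2.74, 2.68, 6.16 and 6.14, so it was as high on the small intestinal array as on the array labelled LP. Car8, a family member without carbonic anhydrase activity, was at 4.79, 3.91, 2.89 and 5.75. Of the 14 measured members, 10 were above the floor in the comparison of small intestinal IEL with the array labelled LP, and 6 of these were lower on the small intestinal array and 0 higher, beside 15.7% and 8.76% of all genes.

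Red cell transcripts were set beside Car1. Of 22 listed red cell markers 14 were measured, and the others were not analysed here. Their summed linear level was 183 on the recolonized array, 2820 on the colon IEL array, 326 on the small intestinal array and 1030 on the array labelled LP. Car2, itself a colonocyte gene, made up 84.8% of the sum on the array labelled LP, and no marker was at 0. Slc4a1, the band 3 anion exchanger, was at 2.32 on the recolonized array, 7.93 on the colon IEL array, 2.64 on the small intestinal array and 2.32 on the array labelled LP. Slc25a37, the mitochondrial iron importer, was at 4.41, 10.27, 5.80 and 4.82 in that order, and Bpgm, which makes bisphosphoglycerate in red cells, at 3.08, 7.64, 3.86 and 4.04. On the recolonized array, with 7 of 12 markers above the floor at least 2-fold lower than on the colon IEL array and 0 higher (3.06% and 6.04% of all genes), Car1 was still at 8.33. The part of red cell RNA in the Car1 level of the colon IEL array was not tested.

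**Figure D2:**
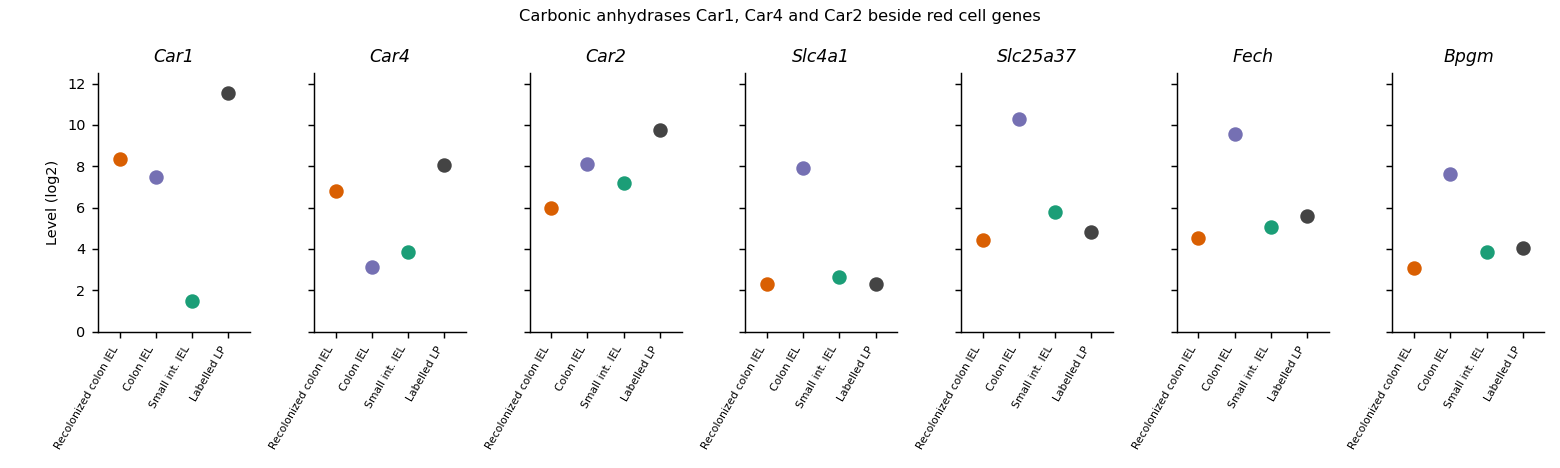
Levels (log2) of the carbonic anhydrases Car1, Car4 and Car2 and of the red cell genes Slc4a1, Slc25a37, Fech and Bpgm on the 4 arrays, 1 point per array. The red cell genes peak on the colon IEL array, where Car1 is at 7.49 and Car4 at 3.14. On the recolonized array Car1 is at 8.33, Car4 at 6.82 and Slc4a1 at 2.32.

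Guca2a, the precursor of guanylin, was at 7.16 on the recolonized array, 3.68 on the colon IEL array, 6.65 on the small intestinal array and 10.54 on the array labelled LP. Uroguanylin (Guca2b), the second ligand of the same receptor, was at 3.94 on the recolonized array, 3.31 on the colon IEL array, 9.71 on the small intestinal array and 6.15 on the array labelled LP. The difference of small intestinal IEL minus the array labelled LP was −3.89 for Guca2a and 3.56 for Guca2b, opposite in sign, while both genes were lowest on the colon IEL array. The receptor Gucy2c was at 3.59, 3.29, 5.98 and 8.42. Cftr, the chloride channel opened downstream, was at 2.07, 1.79, 2.67 and 7.01, and the sodium-proton exchanger Slc9a3, which the pathway inhibits, at 2.76, 2.76, 5.20 and 6.71. Colon IEL had all 7 genes of this pathway list lower by 2-fold or more than the array labelled LP, beside 34.7% of all genes above the floor. Between the recolonized and the colon IEL arrays 5 of the 7 were above the floor, and Guca2a, with 3.47, was the single one at least 2-fold higher, beside 6.04% of all genes.

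Clca3b, of a family of secreted proteins that act on calcium-activated chloride channels, was at 3.004 on the recolonized array, 1.87 on the colon IEL array, 4.07 on the small intestinal array and 9.15 on the array labelled LP. It was near or below the array median on both colon IEL arrays. Its relatives spread in both directions. Clca4b was at 2.58, 2.13, 9.43 and 5.65 in the same order of arrays and thus highest on the small intestinal array, Clca4a at 5.40, 3.84, 7.98 and 8.81, and the goblet cell gene Clca1 at 9.34, 7.64, 8.17 and 9.90. Clca3a1 was between 1.39 and 2.24 on all 4 arrays, and Clca3a2 reached 3.16 on the array labelled LP. Members of the Clca, Cyp2c and Ugt2b families are alike in sequence, and whether probe sets tell each of them from its neighbours is not given in the sources used here, so their single values are uncertain to that extent.

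B4galnt2 encodes the glycosyltransferase that adds the terminal N-acetylgalactosamine of the Sda antigen to glycans of the gut surface. Its level was 5.54 on the recolonized array, 3.53 on the colon IEL array, 8.00 on the small intestinal array and 10.59 on the array labelled LP. Of its relatives, B4galnt1 was between 5.74 and 6.97 on all arrays, B4galnt3 at 1.80, 2.04, 2.57 and 3.83, and B4galnt4 at 3.02, 2.93, 4.33 and 2.70. Tm4sf20, a multi-pass membrane protein of the L6 family, was at 5.88 on the recolonized array, 2.82 on the colon IEL array, 7.66 on the small intestinal array and 8.39 on the array labelled LP. The last pair differed by −0.73, within 2-fold. Its relatives Tm4sf5 and Tm4sf4 were brightest on the small intestinal array, at 8.68 and 5.72 there and 4.38 and 2.72 on the array labelled LP, with values between 2.41 and 3.33 on both colon IEL arrays.

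Among the enzymes of foreign compound and lipid metabolism, Cyp2c55, a cytochrome P450, was at 6.54 on the recolonized array, 3.52 on the colon IEL array, 5.87 on the small intestinal array and 11.54 on the array labelled LP. A second probe set of Cyp2c55 was at 2.31, 2.59, 2.25 and 3.20, close to the low end of the arrays, and gave −0.62 where the first gave −8.01 for colon IEL minus the array labelled LP. No other gene of the 10 had more than 1 probe set that listed its symbol alone, and probe sets listing several symbols were not examined. Cyp2c65 was at 2.31 on the recolonized array, 2.19 on the colon IEL array, 5.91 on the small intestinal array and 8.26 on the array labelled LP, whereas Cyp2c66 was at 5.96 on the small intestinal array and 4.10 on the array labelled LP, and Cyp2c29 at 4.19 and 1.46. Only 5 of 13 measured Cyp2c genes were above the floor in that pair. Ugt2b34, which conjugates glucuronic acid to lipophilic compounds, was at 3.89 on the recolonized array, 2.39 on the colon IEL array, 8.31 on the small intestinal array and 9.23 on the array labelled LP. Its relative Ugt2b35 was at 4.29 on the array labelled LP and between 1.73 and 2.33 elsewhere, and Ugt2a3 at 4.04 on the small intestinal array and between 1.72 and 2.03 elsewhere.

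Small intestinal IEL were set against the array labelled LP, the 2 arrays with the highest pan-epithelial medians (5.53 and 8.21), although the recolonized array at 5.01 was close to the small intestinal one. Of the 10 genes, 8 were at least 2-fold lower on the small intestinal array and 2, Ugt2b34 and Tm4sf20, were within 2-fold, beside 15.7% of all genes lower and 8.76% higher. The differences ran from −10.04 for Car1 to −0.73 for Tm4sf20, with a median of −4.35 against −0.17 over all genes above the floor. Car1 and Slc6a14 were below the median of the small intestinal array, so the sizes of their gaps are set by the low end of that array. The pan-epithelial markers also differed in this pair, by a median of −2.08. Slc6a14, Car1, Car4, Slc26a3, Cyp2c55 and Clca3b lay below all 14 of these markers, and Ugt2b34 and Tm4sf20 lay above 12 of the 14. For Cyp2c55 this held for the brighter probe set only. The second gave −0.96 and the mean of both −3.31, above Esrp1 with −3.91. The 17 measured enterocyte markers of the small intestine went the opposite way, with 16 at least 2-fold higher on the small intestinal array, 1 (Slc10a2) lower and a median of 3.13, led by Fabp1 with 7.46, Apoa4 with 6.75, Lct with 5.65 and Mttp with 5.19.

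**Figure D3:**
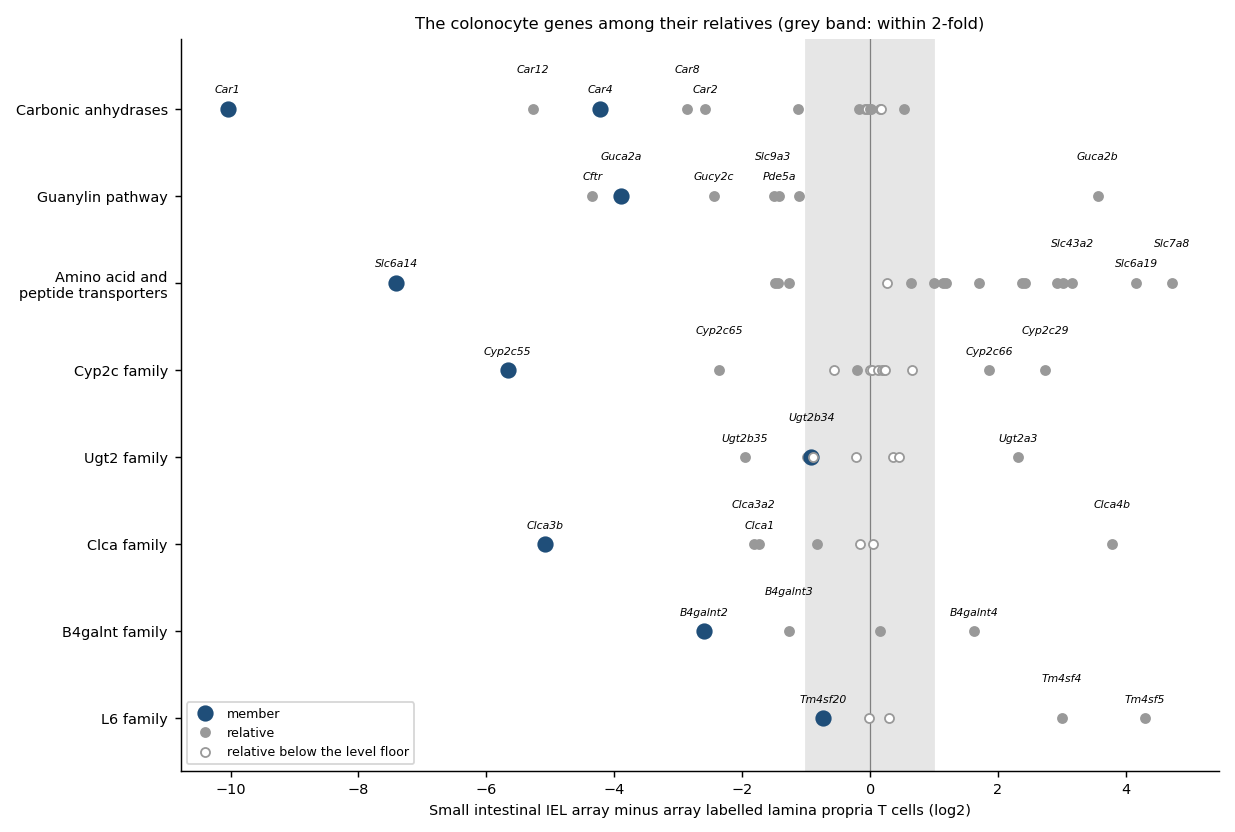
Difference (log2) of the small intestinal array minus the array labelled LP for the colonocyte genes (large points) and their relatives or pathway partners (small points, open where below the level floor), 1 row per family, with the band within 2-fold in grey. Car1 with −10.04 and Slc6a14 with −7.41, both below the median of the small intestinal array, lie far to the left, while Clca4b, Guca2b, Tm4sf5 and most amino acid transporters lie to the right.

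Other genes of the colonocyte programme, from a list that leaves the 10 out and shares Krt20, Lgals4 and Fabp2 with the marker lists, also spread. Of 18 measured, 10 were at least 2-fold lower and 1 (Fabp2) higher on the small intestinal array than on the array labelled LP, and the median difference was −1.11. The 4 with the largest differences were Slc37a2 with −6.15, the water channel Aqp8 with −5.39, Hsd17b2, which oxidises sex steroids, with −4.25 and Phgr1 with −3.61. The brush border genes Cdhr2, Cdhr5 and Myo1a and the keratin Krt20, chosen after their values were seen, were within 2-fold, with differences from −0.74 to 0.44. Of 21 measured genes of colonic ion and water transport, 20 were above the floor, of which 16 were lower and 2 higher (15.7% and 8.76% of all genes), with a median of −2.77. The 4 largest were Aqp8, the basolateral cotransporter Slc12a2 with −5.28, the monocarboxylate transporter Slc16a1 with −5.20 and Cftr with −4.34. The 2 higher genes were the anion exchanger Slc26a6 with 3.77 and the scaffold Slc9a3r1 with 1.15.

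The recolonized array was set against the colon IEL array, the comparison that bears on antibiotics followed by the return of bacteria. All 10 colonocyte genes were higher on the recolonized array, 9 of them by 2-fold or more, beside 6.04% of all genes higher and 3.06% lower. The differences were 3.68 for Car4, 3.47 for Guca2a, 3.07 for Tm4sf20, 3.01 for Cyp2c55, 2.75 for Slc26a3, 2.01 for B4galnt2, 1.99 for Slc6a14, 1.51 for Ugt2b34 and 1.13 for Clca3b. The exception was Car1 with 0.84. The second probe set of Cyp2c55, near the low end of the arrays, gave −0.27 in this pair, and the mean of both gave 1.37. For Slc6a14, Clca3b and Ugt2b34 the colon IEL array was below its median level, so the low end of that array limits the size of the gap. Slc26a3 and Tm4sf20, both at 2.82 there, were close to that median of 2.41, so the sizes of their gaps are limited too. The median was 2.38, against 0.13 over all genes above the floor.

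Other gene lists were set beside the 10 genes in this pair, where 6.04% of all genes above the floor were higher and 3.06% lower. The pan-epithelial markers were higher on the recolonized array by a median of 0.76, with 5 of 14 at least 2-fold higher and 0 lower, and Epcam by 1.63. All 10 colonocyte genes lay above that median, Car1 by 0.08 and Clca3b by 0.37. Of them 7 (Slc26a3, Slc6a14, Car4, Guca2a, Cyp2c55, B4galnt2 and Tm4sf20) lay above each of the 14 markers. Slc6a14 with 1.99 and B4galnt2 with 2.01 were close to the highest marker, Cdh1 with 1.86. For Cyp2c55 this held for the brighter probe set, while the second gave −0.27 and the mean of both 1.37, below Cdh1. For the goblet cell markers the median was 2.07, with 7 of 10 at least 2-fold higher, led by Fcgbp with 3.11, Reg4 with 2.71, Retnlb with 2.60 and Spink4 with 2.57. The other colonocyte genes had a median of 1.10, with 10 of 18 higher, led by the membrane mucin Muc3 with 2.93, Ceacam20 with 2.10, Fabp2 with 1.91 and Cdhr5 with 1.90. The genes of ion and water transport stood lower, with a median of 0.21 and 4 of 17 above the floor higher, among them the sodium pump subunit Atp1b1 with 2.35 and Slc9a3r1 with 1.73. In the same pair the T cell markers had a median of 0.55, with 10 of 11 within 2-fold. Whether the amount or the kind of epithelial RNA in the preparation set these values was not tested, and antibiotics without recolonization were not among the groups.

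**Figure D4:**
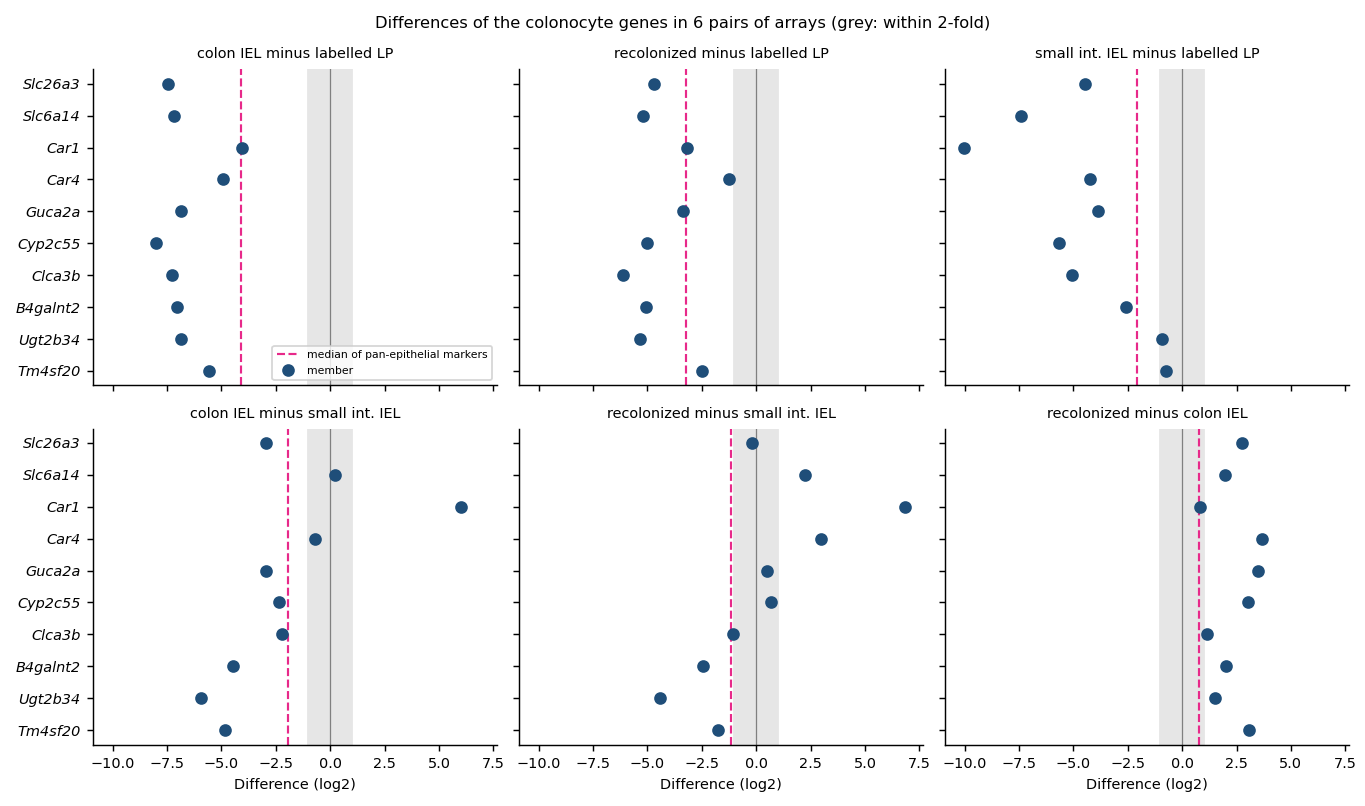
Differences (log2) of the 10 colonocyte genes in the 6 pairs of arrays, 1 point per gene, with the band within 2-fold in grey and the median of the pan-epithelial markers as a dashed line. Recolonized minus colon IEL is above 0 for all 10, and in small intestinal IEL minus the array labelled LP the genes run from −10.04 (Car1) to −0.73 (Tm4sf20).

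Colon IEL and recolonized colon IEL were each set against the array labelled LP. The genes were selected with these differences known, as with those of the other pairs. All are a description, and nothing is read from them. Colon IEL had all 10 genes lower by 2-fold or more, beside 34.7% of all genes, with differences from −8.01 for Cyp2c55 to −4.04 for Car1. All 10 were also lower on the recolonized array, beside 30.3% of all genes, from −6.14 for Clca3b to −1.24 for Car4. The pan-epithelial markers differed by medians of −4.11 and −3.24 in the same pairs. With quantile normalization, centring and lowess, the Car4 difference of the recolonized array was within 2-fold, at −0.12, −0.62 and −0.23.

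Against small intestinal IEL, the colonocyte genes did not move as a block. On the colon IEL array 7 of the 9 that passed the floor lay lower by 2-fold or more (24.4% of all genes), led by Ugt2b34 with −5.93 and Tm4sf20 with −4.84, and 1 was higher (5.98% of all genes), Car1 with 6.01. On the recolonized array 3 of 10 were higher (4.76% of all genes), namely Car1 with 6.84, Car4 with 2.98 and Slc6a14 with 2.22. Another 4 were lower (17.9% of all genes), namely Ugt2b34 with −4.42, B4galnt2 with −2.46, Tm4sf20 with −1.78 and Clca3b with −1.07. The remaining Cyp2c55, Guca2a and Slc26a3 were within 2-fold, at 0.67, 0.51 and −0.21. With quantile normalization and with lowess, Guca2a (1.32 and 1.06) and Cyp2c55 (1.48 and 1.27) were also at least 2-fold higher, as was Cyp2c55 with centring (1.03). Clca3b was within 2-fold with quantile normalization, centring and lowess (−0.75, −0.70 and −0.78), and Tm4sf20 with quantile normalization (−0.91). The sign for Slc26a3 turned to 0.61, 0.15 and 0.40 with quantile normalization, centring and lowess. The 2 colon arrays share the small intestinal array in these pairs.

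The likeness of 2 genes was measured as the root mean square difference of their log2 profiles over the 4 arrays, each gene centred on its own mean. Within the 10, Slc26a3 was closest to Cyp2c55 (0.44) and Guca2a (0.46), and Clca3b to Slc26a3 (0.64). Ugt2b34, Tm4sf20 and B4galnt2 lay within 0.76 to 1.12 of each other. They were not a group apart, because B4galnt2 was 0.85 from Slc26a3 and 0.98 from Clca3b. Car1 was the farthest from the rest, with 4.78 to Ugt2b34 and no gene nearer than 1.84. Over all 12939 named genes above the floor on at least 1 array, the nearest to Slc26a3 was the goblet cell lectin Reg4 (0.32), to Slc6a14 the epithelial scavenger receptor protein Dmbt1 (0.38), to Car4 S100a6 (0.56), to B4galnt2 the phospholipid flippase Atp8b1 (0.39) and to Ugt2b34 the brush border cadherin Cdhr2 (0.32) and the monoamine oxidase Maoa (0.32). Tm4sf20 was nearest to cytochrome c (Cycs, 0.22), Fcgbp (0.24) and Atp1b1 (0.27), and Clca3b to Hsd17b2 (0.50) and the immediate early gene Jun (0.56). The nearest to Car1 were Tgm3, Tspan1 and Mboat1 at 1.84, 1.85 and 1.95. With 4 points per profile, each from a single array, many genes can lie this close.

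The promoters of the 4 genes with profiles closest to one another, Slc26a3, Cyp2c55, Guca2a and Clca3b, are printed because these genes had like levels over the arrays (0.44 to 1.05 between them), a choice made after their values were seen. RefSeq promoter windows (GRCm38.p6, 250 bases before to 50 after the gene start, in the direction of transcription) were matched for 8 of the 10 genes, all but Car1 and Tm4sf20. Short motifs were searched on both strands, and matches are in capitals. The CDX type was spelled TTTATG. The HNF4 type was spelled CAAAGT. For the HNF1 type the letters were GTTAAT. For the KLF type they were CACCC, and for the GATA type they were AGATAA. None of these overlapped another in a printed window. The Slc26a3 window lies at chr12:31437969-31438268 (plus strand), that of Cyp2c55 at chr19:39006769-39007068 (plus strand), that of Guca2a at chr4:119637482-119637781 (plus strand) and that of Clca3b at chr3:144849253-144849552 (minus strand).
Slc26a3: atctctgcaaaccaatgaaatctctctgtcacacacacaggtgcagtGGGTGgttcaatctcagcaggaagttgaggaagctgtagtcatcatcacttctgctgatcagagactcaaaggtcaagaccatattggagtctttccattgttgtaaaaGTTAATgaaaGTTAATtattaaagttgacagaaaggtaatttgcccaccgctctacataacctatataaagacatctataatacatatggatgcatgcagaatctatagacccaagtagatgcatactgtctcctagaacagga
Cyp2c55: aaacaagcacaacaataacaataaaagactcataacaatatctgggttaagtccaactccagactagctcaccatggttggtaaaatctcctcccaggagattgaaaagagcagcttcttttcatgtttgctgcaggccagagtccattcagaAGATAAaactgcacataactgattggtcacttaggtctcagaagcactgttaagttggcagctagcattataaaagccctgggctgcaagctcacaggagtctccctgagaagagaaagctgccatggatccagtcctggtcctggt
Guca2a: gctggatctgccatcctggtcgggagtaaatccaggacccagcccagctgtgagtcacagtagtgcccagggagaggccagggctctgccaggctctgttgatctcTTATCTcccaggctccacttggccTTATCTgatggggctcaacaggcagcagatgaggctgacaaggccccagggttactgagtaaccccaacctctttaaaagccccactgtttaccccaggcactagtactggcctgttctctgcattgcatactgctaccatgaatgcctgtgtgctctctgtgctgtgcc
Clca3b: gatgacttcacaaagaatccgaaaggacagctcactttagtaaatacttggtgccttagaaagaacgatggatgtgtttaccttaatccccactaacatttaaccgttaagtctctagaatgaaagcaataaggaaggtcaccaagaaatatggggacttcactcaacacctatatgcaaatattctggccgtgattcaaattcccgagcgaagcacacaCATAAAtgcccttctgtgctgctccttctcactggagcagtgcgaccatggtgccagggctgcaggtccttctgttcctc
The Slc26a3 window held 2 HNF1-type matches at −94 and −84 from the start and 1 KLF-type match, Guca2a 2 GATA-type matches at −144 and −120, Cyp2c55 1 GATA-type match at −97, and Clca3b 1 CDX-type match at −30. No motif was shared by all 4. Among the 8 windows the CDX type was found in 1, the HNF1 type in 1, the GATA type in 2, the KLF type in 2 and the HNF4 type in 0. Over all 32851 mouse promoter windows of the same length the shares were 11.9%, 7.10%, 11.2%, 57.5% and 14.4% in that order. A match describes letters in a window and not a bound site.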

How the data were processed

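RNA of 4 samples was measured on 1 Affymetrix array each. The authors deposited log2 values, for which the submitters' processing notes name Affymetrix Expression Console. Version, summarization and normalization: not given in the sources used here. Of 41345 probe sets, 23521 listed 1 gene symbol, 1814 several and 16010 had no entry in the gene table of the platform. Differences were taken per gene between 6 pairs of arrays. A gene was counted when its level reached the 50th percentile of genes on whichever array was brighter, and called at 2-fold. The members and the 19 other gene lists (237 listed genes with the members, 210 measured) were chosen with earlier results of these data known. Genes named were all members, their relatives, the 4 largest differences of each list, some fixed genes and the 3 nearest profiles. Python 3.11.15, pandas 2.3.3 and statsmodels 0.14.6 were used. The counting was run on simulated data with planted differences well past 2-fold, which checks their recovery and not false calls. Alternatives were quantile normalization, centring, lowess (span 0.3), the mean of probe sets, other folds (1.5 and 3) and floors (25th, 75th, none).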

Additional observations from a re-analysis of the deposited data

How the results depend on the processing

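With 1 array per group, no paired analysis was possible because no group holds 2 samples, and no replicate could be left out. The 60 differences of the 10 genes gave 240 alternative values, of which 236 kept the sign. The exceptions were Slc26a3 for recolonized minus small intestinal IEL and Slc6a14 for colon minus small intestinal IEL. The latter was −0.02 after lowess against 0.23. Sizes were less stable. Of the 240 values, 90 moved by at least the standard deviation of ribosomal protein genes in their pair (0.34 to 0.60), and 150 did not. In colon IEL minus the array labelled LP, lowess brought Slc26a3 to −5.98 from −7.44 and Guca2a to −5.45 from −6.85. Counts of the 10 genes stayed within 1.5 times except for recolonized minus small intestinal IEL, where 3 higher became 5 under quantile normalization and 5 after lowess, and 4 lower became 2 under quantile normalization. The mean of both probe sets brought the Cyp2c55 difference of colon IEL minus the array labelled LP to −4.32, against −8.01. Centring moved the median of all genes to 0.82 from 0.10 in that pair and to −0.07 from 0.03 for recolonized minus colon IEL. The share of higher among called genes was 23.2% for colon IEL and 23.7% for recolonized minus the array labelled LP, but 48.9% and 47.6% under quantile normalization, 60.7% and 60.2% after centring and 44.2% and 44.4% after lowess. For small intestinal IEL minus that array it was 35.8%, against 49.5%, 51.8% and 47.5%. For colon and recolonized minus small intestinal IEL it was 19.7% and 21.0%, against 49.6% and 49.2%, 55.5% and 54.1%, and 39.7% and 37.7%. For recolonized minus colon IEL it was 66.3%, against 48.8%, 52.4% and 46.6%. The cause was not tested. The standard deviation of gene levels was 1.35 on the recolonized array, 1.23 on the colon IEL array, 1.67 on the small intestinal array and 1.81 on the array labelled LP. Levels near an array's median limit the size of a difference.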

Other observations

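Transcription factors that pattern the gut epithelium were measured on the same arrays, 9 of the 12 listed. Hnf4g was highest on the small intestinal array, at 3.40 on the recolonized array, 2.50 on the colon IEL array, 8.85 on the small intestinal array and 5.95 on the array labelled LP, whereas its relative Hnf4a was at 4.89, 4.97, 6.66 and 7.73. Cdx1 was at 4.02, 2.79, 3.45 and 5.96 and Cdx2 at 4.39, 4.68, 5.08 and 6.98 in the same order. For recolonized minus colon IEL, Klf4 differed by 1.80, Klf5 by 1.63, Gata4 by 1.38 and Cdx1 by 1.22, and the other 5 were within 2-fold. Over all genes above the floor in that pair 6.04% were higher. Gata4 was at 2.22 on the colon IEL array, below that array's median of 2.41, so the low end limits the size of its gap.

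Ang4, an antimicrobial ribonuclease made by Paneth and goblet cells and chosen after its values were seen, was the one listed Paneth cell marker that was higher on the recolonized array, at 9.25, than on the small intestinal array, at 8.23. Carbonic anhydrase Car3, also chosen after its values were seen, was at 3.76 on the recolonized array, 4.34 on the colon IEL array, 2.80 on the small intestinal array and 2.28 on the array labelled LP, an order in which the array labelled LP is lowest.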
